A study of Xenopus laevis with 12 samples.

Results

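The selenoproteins and the redox enzymes that work with them were examined in RNA of whole *Xenopus laevis* embryos. Members were taken by gene symbol, as the rows of the deposited expression table named for selenoproteins, glutathione peroxidases, thioredoxin reductases, deiodinases, methionine sulfoxide reductases of the B class, selenocysteine synthesis and insertion factors, peroxiredoxins, or thioredoxins and their relatives. The choice was made with earlier results of these data known. The rule took 78 of the 26050 genes in that table. Of these, 77 passed the filter on low values and were tested, and the S copy of selenom was too low. The 78 rows carry 50 gene symbols, because *X. laevis* keeps paired gene copies (homeologs) on its long (L) and short (S) chromosomes, and 28 symbols had both copies in the table.

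Embryos were wild type and were collected at stage 35. They had been raised in cohorts of 100 (small) or 300 (large), either without drug (control) or with 90 µM thioridazine, a dopaminergic agent that the study used as a teratogen. Each of the 4 groups had 3 libraries, and each library was made from 15 pooled tadpoles. The medium volume was scaled to the number of embryos. The labels start exposure at stage 12.5 and end it at stage 35, whereas the methods of the study end it earlier and so the window is unsettled. The study describes its embryos in one place as mixed from separate mothers before being divided, and in another as of a single clutch in each experiment, and no label ties a pool to a clutch or an experiment. The p-values therefore cover the variation from pool to pool, which may be technical.

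Selenoproteins carry selenocysteine, an amino acid that is inserted at a UGA codon with the help of a hairpin in the messenger RNA and a protein that binds it. Most of those with a known function are oxidoreductases: glutathione peroxidases reduce hydrogen peroxide and lipid hydroperoxides, thioredoxin reductases recharge thioredoxin, and deiodinases switch thyroid hormone on or off. Peroxiredoxins and thioredoxins carry out related chemistry with ordinary cysteine. Selenoprotein P is secreted, mainly by the liver, and delivers selenium to other tissues.

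Library totals ranged from 4887343 to 7497662 estimated counts. A count of 3 in a library corresponded to 0.4 to 0.622 CPM (the count of a gene scaled to the total of its library). On the first principal component of all genes (29.1% of the variance), the controls lay between -38.3 and -22.6, whereas thioridazine small replicate 1 (63.6) and thioridazine large replicate 2 (47) lay farther out than the other thioridazine libraries (4.06 to 28.9). Markers of all 10 tissues examined were detected, as a whole embryo should show, but not every listed marker was. The classical liver marker alb.S had only 6 counts in all libraries together. Totals were also low for rows such as matn1.L (5), matn1.S (7), cpa1.L (16), cpa1.S (12), hba1.L (11) and hba1.S (26). Some listed symbols had no row, among them markers of pronephros (4 of 6 found) and of lens and retina (3 of 5). The summed level of the lens and retina markers was 308.2 to 471.3 CPM in the 6 control libraries and 132.7 to 235 CPM in the 6 thioridazine libraries, and neural markers ranged from 854.2 to 956.6 and from 622.5 to 768.4 CPM, respectively. In pooled whole embryos, fewer cells of a type and less RNA per cell cannot be told apart.

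Of the 78 members, 70 were above 1.8 CPM in all 12 libraries. The count table held 84 rows that match the rule, and 6 of these were not in the expression table, so low rows had already been left out. The share of all genes above that level in every library was not counted, and pooled whole embryos do not show which tissues express a gene. A gene was called when its adjusted p (limma, Benjamini-Hochberg over all 25553 genes tested) was under 0.05. In large against small control cohorts, 1 of 77 members was called and it was higher, compared with 0.125% of all genes (0.117% called higher). There 12 members (15.6%) had an unadjusted limma p under 0.05, compared with 8.75% of all genes. In large against small thioridazine cohorts, limma called 0 members (4 had an unadjusted p under 0.05, compared with 6.92% of all genes), where the called share of all genes was 0.0744%, and edgeR and DESeq2 also called 0. Thioridazine against control gave 0 called members in small cohorts, where the share of all genes was 2.81% and 14 members had an unadjusted p under 0.05 (18.4% of all genes), and edgeR and DESeq2 again called 0. In large cohorts it gave 1 called member, which was higher, against 2.24% of all genes (0.927% called higher). Here 19 members (24.7%) had an unadjusted limma p under 0.05, compared with 16.9% of all genes. Averaged over both cohort sizes, the thioridazine effect was called for 5 of 77 members (6.49%), 4 higher and 1 lower (gpx2.L, which passed the filter through control libraries alone), compared with 9.04% of all genes (3.9% higher and 5.14% lower). The share of called members lay below that of all genes in these 3 thioridazine comparisons, but it rests on few calls. In large cohorts the share with an unadjusted p under 0.05 lay above that of all genes. Between control cohorts the called share (1.3%, from 1 gene) and the unadjusted share also lay above those of all genes. Whether these counts set the group apart from other genes was not tested. No direction was common to the whole group. The average effect was above 0 for 45 members and below 0 for 32 (58.4% above, compared with 51% of all genes). Its median log2 change was 0.05 for the 77 members and 0.00 for all genes. Of the 17 members with an unadjusted limma p under 0.05, 15 were higher and 2 lower. Over all genes 2876 were higher and 3210 lower at that threshold. This lean to higher values was not tested.

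**Figure D1:**
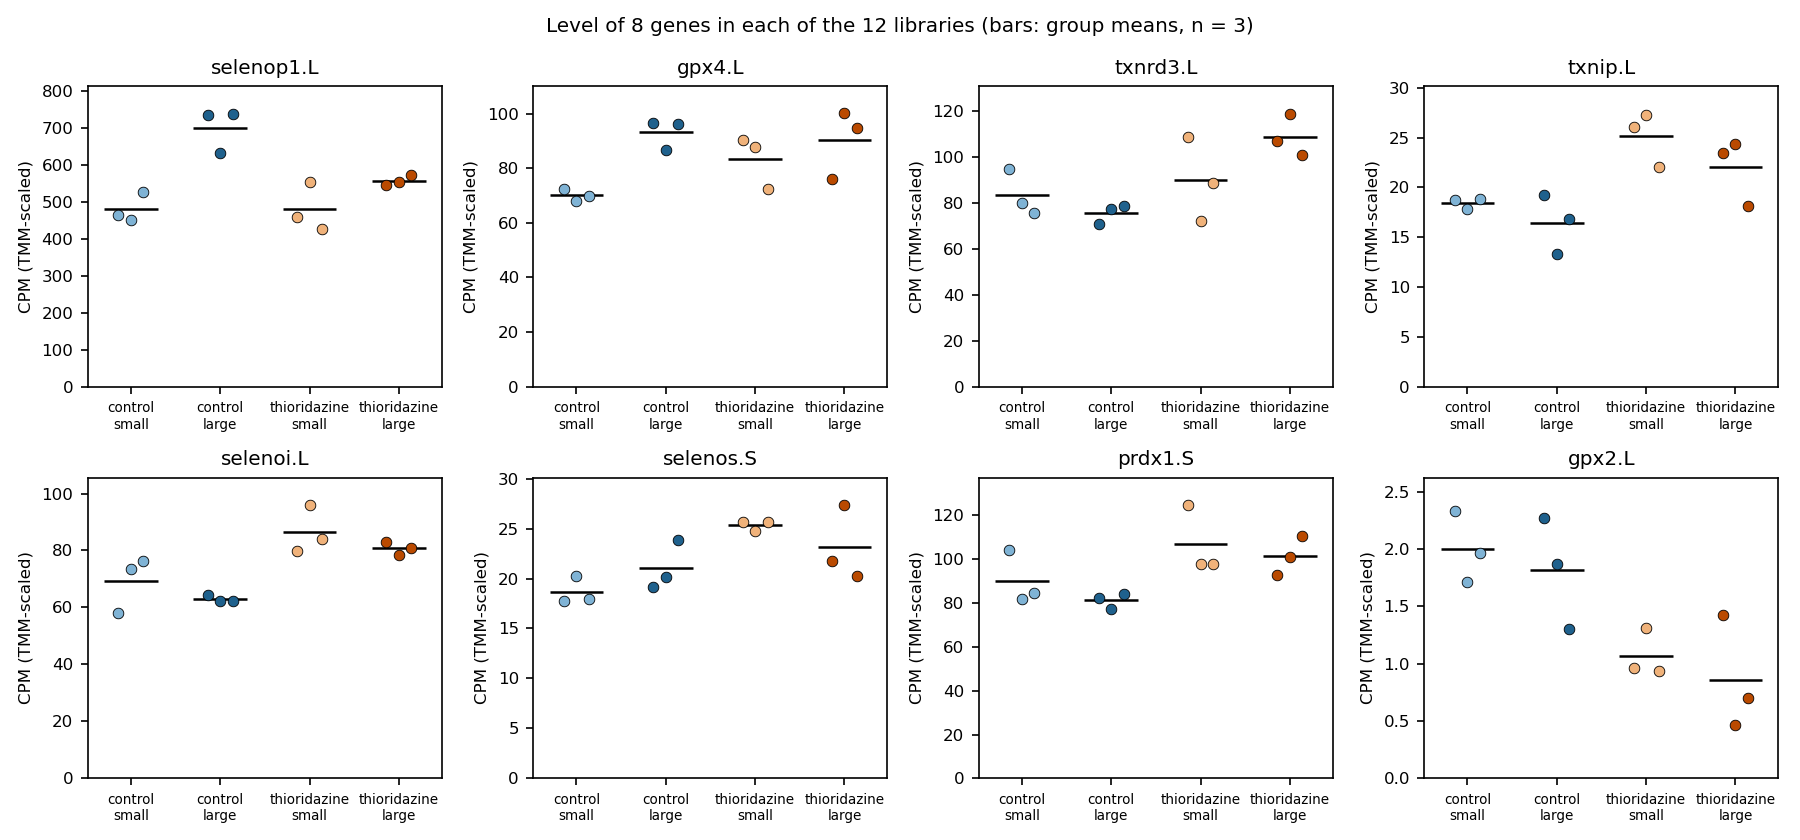
Levels of 8 genes in each of the 12 libraries, in CPM after TMM scaling, by group (points are libraries, bars are group means, n = 3, and each axis starts at 0). The 3 large control libraries lie above all others for selenop1.L, the 6 thioridazine libraries lie above all 6 control libraries for selenoi.L, and the other panels overlap between at least some groups.

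The member that was called between control cohorts was selenop1.L, which encodes selenoprotein P. It was measured at 464, 450.0 and 527 CPM in the small control libraries and at 734, 631 and 737 CPM in the large ones. With thioridazine it was 459.5, 553 and 426 CPM in small cohorts and 545, 553 and 572 CPM in large cohorts. Thus every large control library lay above every other library, the small thioridazine libraries overlapped with the small controls, and the 3 large thioridazine libraries lay above all small controls and below all large ones. The log2 difference of large against small control cohorts was 0.55 ± 0.09 (SE; 95% interval 0.36 to 0.74; limma adjusted p = 0.0446). The difference between large and small thioridazine cohorts was 0.22 ± 0.09 (limma adjusted p = 0.667), and the drop from large control to large thioridazine cohorts, -0.33 ± 0.09, did not pass the threshold (limma adjusted p = 0.0651). It did pass with DESeq2 (0.0298), with quality weights (limma, 0.0442), with the compared libraries alone (limma, 0.0243) and without small thioridazine replicate 2 or 3 (limma, 0.0271 and 0.0443). The interaction test, which compares the thioridazine effects of the large and the small cohorts, gave -0.32 ± 0.13 (limma adjusted p = 0.553), so a different response by cohort size was not established. The call of selenop1.L was close to the threshold: it was lost with edgeR (limma's 0.0446 became 0.0538), without the filter on low values (limma, 0.0508), on the deposited log2 table (0.0525), with the replicate number as a block (0.0631) and when any of 7 single libraries was left out (small control replicates 1, 2 and 3, large control replicates 1 and 3, large thioridazine replicates 1 and 3), with adjusted p from 4.89e-05 to 0.243 over all alternatives.

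The group means of summed liver markers had the same order as those of selenop1.L. The summed level of 16 liver marker rows (albumin, fibrinogens, apolipoproteins, transthyretin and others) ranged from 2221 to 3454 CPM in small control, 3772 to 4975 in large control, 2461 to 3326 in small thioridazine and 3360 to 3463 in large thioridazine libraries. Single libraries could depart from this order. Small control replicate 1 had a liver sum of 3454 CPM, within the large thioridazine range, but selenop1.L was at 464 CPM there, below all large thioridazine libraries. All 15 tested liver rows had a positive log2 difference between large and small control cohorts, with a median of 0.66, and 3 of them were called higher. Between large thioridazine and large control cohorts 0 of 15 were positive, the median was -0.42 and 3 were called lower. The summed red blood cell markers were 550.5 to 655.5 CPM in large and 293.2 to 523.2 CPM in small controls, and gut and pancreas markers 54.76 to 68.52 and 45 to 51.17 CPM, with a positive difference for all 6 tested gut and pancreas rows (median 0.35). Pronephros markers went the other way, at 218.6 to 223.4 CPM in large and 236 to 256.9 CPM in small controls. Summed epidermis and ionocyte markers were 1824 to 2226 and 1558 to 1751 CPM, although only 1 of 7 tested rows had a positive difference. The sums of the other marker lists overlapped between control cohorts. What part the amount of liver, blood, gut or any other tissue has in the level of selenop1.L was not tested. The only other selenoprotein P row, selenop2l.L, was near the filter at 1.43 to 4.98 CPM and was not called in any comparison.

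**Figure D2:**
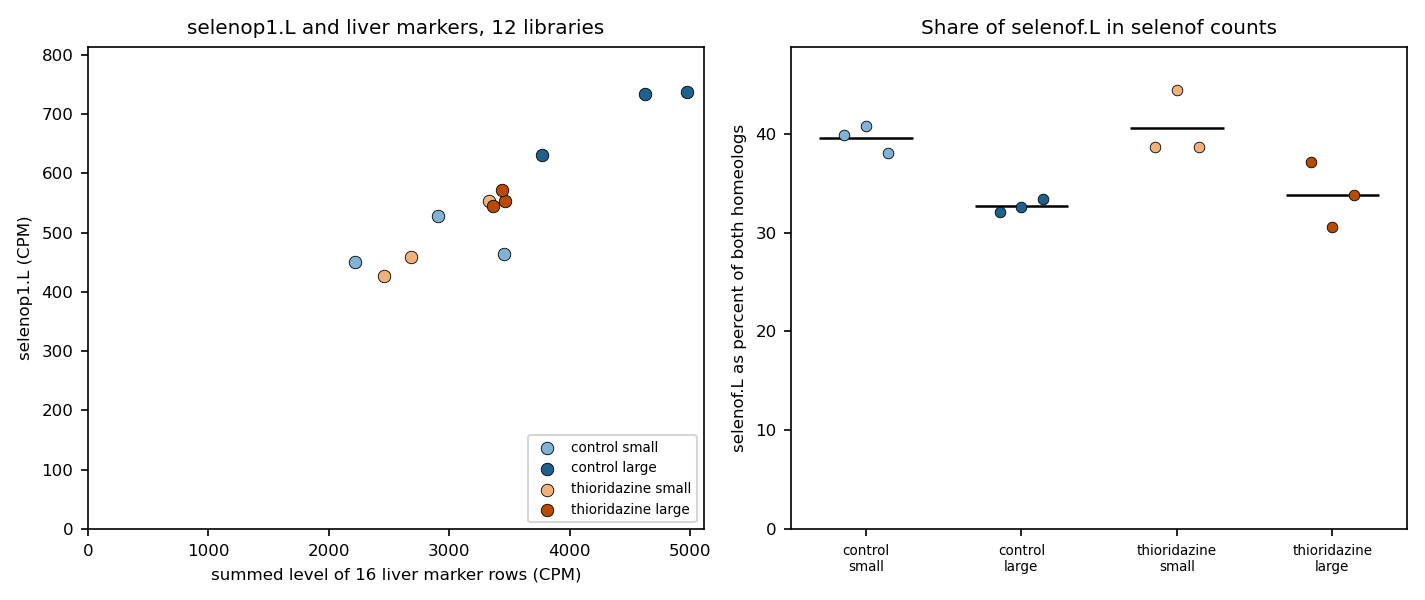
Left, the level of selenop1.L in CPM against the summed level of 16 liver marker rows in CPM, 1 point per library: the 3 large control libraries have both the highest selenop1.L (631 to 737 CPM) and the highest liver sums (3772 to 4975 CPM). Right, selenof.L as a percent of the counts of both selenof homeologs (points are libraries, bars are means, n = 3): it is 32.1 to 33.4% in large control and 38.1 to 40.8% in small control libraries.

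Among the selenoproteins of the endoplasmic reticulum and other membranes, selenoi.L was the member with the lowest adjusted p for the average thioridazine effect. It encodes an ethanolamine phosphotransferase of phosphatidylethanolamine synthesis. Its level was 58.0, 73.4 and 76.2 CPM in small control, 64.4, 62.2 and 62.1 in large control, 79.8, 95.9 and 84.1 in small thioridazine and 82.9, 78.5 and 80.9 CPM in large thioridazine libraries. All 6 thioridazine libraries thus lay above all 6 controls. The log2 change was 0.33 ± 0.10 in small cohorts (limma adjusted p = 0.0848) and 0.36 ± 0.10 in large cohorts (limma adjusted p = 0.0793), and their average, 0.35 ± 0.07, passed (limma adjusted p = 0.00694). The change in large cohorts passed with quality weights (limma, 0.0452), with the compared libraries alone (limma, 0.0238) and without small control replicate 1 (limma, 0.036). The average call was kept when each of the 12 libraries was left out in turn. It was lost in the fit with 2 surrogate variables (0.50, limma adjusted p = 0.165), which are hidden factors estimated from the data; the first of them had 67.9% of its variance between treatments. Its homeolog selenoi.S, at 6.8 to 8.36 CPM throughout, had an average log2 change of 0.01 (95% interval -0.22 to 0.24).

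Selenos, a membrane protein of the pathway that removes misfolded proteins from the endoplasmic reticulum, was a near miss. The S copy was at 17.7, 20.3 and 18.0 CPM in small control and at 25.7, 24.7 and 25.6 CPM in small thioridazine libraries, without overlap. In large cohorts selenos.S ranged from 19.1 to 23.8 CPM in controls and from 20.2 to 27.4 CPM with thioridazine, and these overlapped. Its log2 change was 0.44 ± 0.13 in small cohorts (limma adjusted p = 0.0745), 0.14 ± 0.13 in large cohorts (limma adjusted p = 0.615) and 0.29 ± 0.09 on average (limma adjusted p = 0.0537). The average passed without large control replicate 3 (limma, 0.0477) and without large thioridazine replicate 3 (limma, 0.0398). The L copy was 12.2 to 13.3 CPM in small control and 14.6 to 16.7 CPM in small thioridazine libraries, with a log2 change of 0.30 ± 0.12 (limma adjusted p = 0.194).

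Selenof, which binds the enzyme that checks glycoprotein folding in the endoplasmic reticulum, differed between its homeologs. The L copy was at 85.9, 77 and 69.6 CPM in small control and at 54.0, 57.5 and 66.8 CPM in large control libraries, and these groups did not overlap. With thioridazine selenof.L was at 77.1, 97.7 and 77.1 CPM in small and 82.6, 57.7 and 82.5 CPM in large cohorts. Its log2 difference between large and small controls was -0.39 ± 0.14 (limma adjusted p = 0.417). The S copy gave 0.04 ± 0.09 for the same contrast, and was at 112 to 130 CPM in small control and 114 to 134 CPM in large control libraries. The L copy made up 39.6 ± 1.36% (SD, n = 3) of selenof counts in small control, 32.7 ± 0.628% in large control, 40.6 ± 3.36% in small thioridazine and 33.9 ± 3.26% in large thioridazine libraries. These shares are given as a description without a test, and reads that match both homeologs had been divided by estimation. With 2 surrogate variables selenof.L was called lower in large controls (-0.53, limma adjusted p = 0.0152) and higher with thioridazine in large cohorts (0.70, limma adjusted p = 0.011). The first of these variables had 67.9% of its variance between treatments. Selenof.L itself overlapped between large control and large thioridazine libraries, with means of 59.45 and 74.27 CPM. Its average thioridazine effect was 0.21 ± 0.10 (limma adjusted p = 0.209), and this was called with 2 surrogate variables (0.54, 0.0326) and without both libraries that stood apart (0.32, 0.0453).

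The other rows named as selenoproteins were not called, although some groups were separate. Selenok.S, a small membrane protein of the endoplasmic reticulum, was at 9.89, 9.29 and 7.85 CPM in small control and at 15.15, 11.5 and 10.9 CPM in small thioridazine libraries, without overlap. Its log2 change in small cohorts was 0.44 ± 0.18 (limma adjusted p = 0.216), and in large cohorts -0.06 ± 0.19. Selenok.L had an average thioridazine effect of 0.29 ± 0.12 (limma adjusted p = 0.152). Selenom.L, a thioredoxin-like protein of the same compartment, ranged from 51.9 to 61.5 CPM in large control and from 44.0 to 48.9 CPM in large thioridazine libraries (-0.30 ± 0.15; limma adjusted p = 0.317). Selenoo.L, a mitochondrial protein, gave 0.17 ± 0.08 in large cohorts (limma adjusted p = 0.278), where its groups did not overlap either. Selenot.L, a thioredoxin-like protein of the endoplasmic reticulum, was within 63.3 to 75.9 CPM in all libraries. Its thioridazine effect had 95% intervals of -0.16 to 0.18 in small and -0.11 to 0.24 in large cohorts. Its homeolog selenot.S was within 73.7 to 88.9 CPM, with means of 85.5 CPM in small control and 84.8 CPM in large control libraries. With thioridazine the selenot.S means were 81.8 CPM in small and 78.9 CPM in large cohorts. Selenon, which senses calcium in the endoplasmic reticulum and is needed in muscle, was at 24.1 to 43.2 CPM for the L copy and 7.87 to 17.2 CPM for the S copy, and neither was called. Selenow1.L and selenow2.L, small proteins with a thioredoxin-like fold, were at 12.6 to 19.5 and 4.98 to 12.4 CPM. Selenow2.L did not overlap between control cohorts (4.98 to 10 CPM in small, 10.1 to 12.4 CPM in large), with a log2 difference of 0.62 ± 0.25 (limma adjusted p = 0.475). In all, 18 rows named as selenoproteins were tested, of which 1 was called between control cohorts (0.125% of all genes) and 1 on average with thioridazine (9.04% of all genes). On average 7 (38.9%) had an unadjusted limma p under 0.05, 6 higher and 1 lower, compared with 23.8% of all genes. With thioridazine in small cohorts these were 4 (22.2%, against 18.4%) and in large cohorts 5 (27.8%, against 16.9%). Between control cohorts they were 3 (16.7%, against 8.75%). The difference from all genes was not tested.

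Of the 12 glutathione peroxidase rows, limma called none between cohorts (0.125% of all genes in control and 0.0744% in thioridazine cohorts). On average with thioridazine, 2 rows (16.7%) had an unadjusted limma p under 0.05, compared with 23.8% of all genes. With thioridazine in large cohorts these were 4 (33.3%, against 16.9%), 2 higher and 2 lower. In small cohorts they were 3 (25%, against 18.4%), 1 higher and 2 lower. Between control cohorts they were 2 (16.7%, against 8.75%). The difference from all genes was not tested. The average thioridazine effect was called for 1 row (8.33%), compared with 9.04% of all genes. This was gpx2.L, whose mammalian counterpart is a peroxidase of the gut lining. It was at 2.34, 1.71 and 1.96 CPM in small control, 2.27, 1.87 and 1.30 in large control, 0.959, 1.31 and 0.934 in small thioridazine and 1.42, 0.464 and 0.698 CPM in large thioridazine libraries. The small cohorts did not overlap, and in large cohorts 1 thioridazine library lay above the lowest control. The average log2 change was -0.996 ± 0.29 (limma adjusted p = 0.0431). These are very low levels: thioridazine large replicate 2 held 3 counts, and gpx2.L was the single member that passed the filter through control libraries alone, so that it could be tested because it was higher there. The call was lost when any of 10 single libraries was left out (limma adjusted p from 0.0524 to 0.121; it remained only without large control replicate 3 or large thioridazine replicate 1), with DESeq2 (0.151), with 2 surrogate variables (-0.44, limma adjusted p = 0.936), without the filter (0.0544), on the deposited log2 table (0.0612), with quality weights (0.0502) and without both libraries that stood apart (0.186). Its homeolog gpx2.S had an average change of -0.32 ± 0.27. Summed gut and pancreas markers, given for comparison, ranged from 45 to 51.17 CPM in small control, 54.76 to 68.52 in large control, 45.77 to 71.51 in small thioridazine and 59.13 to 63.46 CPM in large thioridazine libraries.

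Gpx4, the peroxidase that reduces lipid hydroperoxides within membranes and restrains ferroptosis, was at 72.5, 68.0 and 69.7 CPM in small control and 96.7, 86.5 and 96.1 CPM in large control libraries for its L copy. With thioridazine gpx4.L was at 90.5, 87.6 and 72.3 CPM in small and 75.9, 100.3 and 94.7 CPM in large cohorts. The controls did not overlap, whereas the thioridazine groups did. The log2 difference between control cohorts, 0.41 ± 0.11, was not called (limma adjusted p = 0.198), but passed when the 6 control libraries were fitted alone (limma adjusted p = 0.0303). Thioridazine effects on gpx4.L were 0.24 ± 0.11 in small and -0.06 ± 0.11 in large cohorts. Gpx4.S, at 7.55 to 13.8 CPM, gave 0.22 ± 0.19 between control cohorts.

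Other glutathione peroxidases showed smaller or less regular differences. Gpx1, the cytosolic enzyme, had average thioridazine effects of 0.11 ± 0.15 for the L copy and -0.28 ± 0.14 for the S copy, neither called. Gpx3, the secreted form, had 0.28 ± 0.11 for the L copy (limma adjusted p = 0.12) and 0.08 ± 0.10 for the S copy. The average for gpx3.L passed without small control replicate 1 (0.375, limma adjusted p = 0.0282). In large cohorts gpx3.L was 12.4 to 12.9 CPM in controls and 15.5 to 18.1 CPM with thioridazine, without overlap. Gpx8.S, a cysteine-containing peroxidase of the endoplasmic reticulum, was the member with the largest interaction estimate above 0. It was at 13.1, 11.9 and 11.02 CPM in small control, 8.71, 9.13 and 7.91 in large control, 12.5, 9.01 and 8.93 in small thioridazine and 12.7, 10.4 and 13.6 CPM in large thioridazine libraries. The thioridazine effect on gpx8.S was -0.28 ± 0.16 in small and 0.49 ± 0.17 in large cohorts, and their difference of 0.78 ± 0.23 did not pass (limma adjusted p = 0.408). The interaction called 0 of the 77 members with limma, edgeR and DESeq2 (7 had an unadjusted p under 0.05, compared with 7.74% of all genes), where the called share of all genes was 0.0196%.

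**Figure D3:**
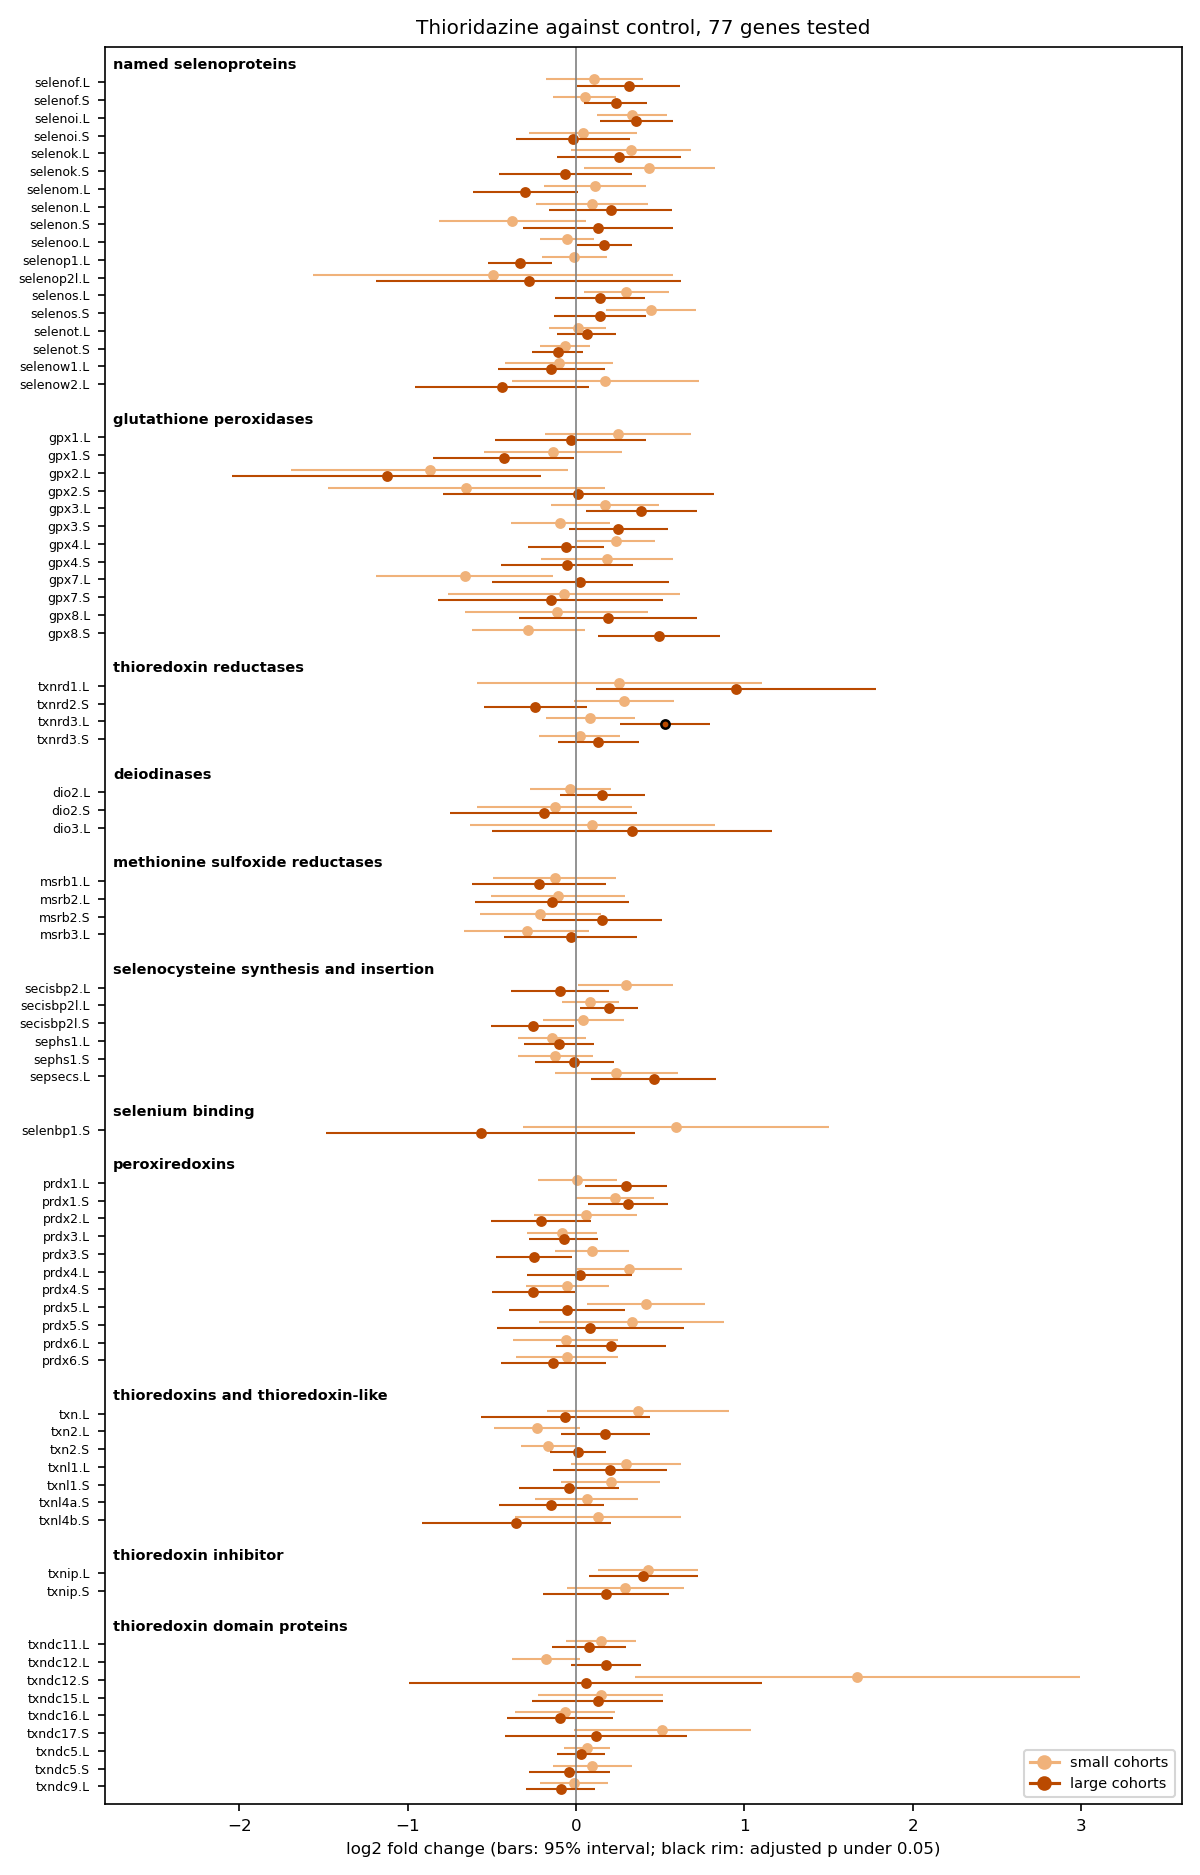
Log2 fold change of thioridazine against control for the 77 genes tested, by role, in small (light) and large (dark) cohorts (points are limma estimates, bars 95% intervals, a black rim marks an adjusted p under 0.05). Only txnrd3.L in large cohorts (0.53) has a rim, and most intervals cross 0.

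The thioredoxin reductases held the one member called in a single thioridazine comparison. Txnrd3.L, whose mammalian counterpart joins a glutaredoxin domain to a thioredoxin reductase, was at 94.6, 80.0 and 75.6 CPM in small control and 70.6, 77.4 and 78.7 CPM in large control libraries. With thioridazine it was at 109, 72.1 and 88.6 CPM in small and 107, 119 and 101 CPM in large cohorts. In large cohorts all thioridazine libraries lay above all controls, and in small cohorts the groups overlapped. The log2 change was 0.53 ± 0.13 in large cohorts (95% interval 0.26 to 0.79; limma adjusted p = 0.0405) and 0.09 ± 0.12 in small cohorts (95% interval -0.18 to 0.35). The difference of these effects, 0.44 ± 0.18, was not called (limma adjusted p = 0.554). The highest value of each thioridazine group came from the library that also stood apart on the first principal component. Without those 2 libraries the change in large cohorts was 0.46 (limma adjusted p = 0.0613), with 2 surrogate variables it was 0.26 (limma adjusted p = 0.638), without the filter it was 0.53 (limma adjusted p = 0.0577), and leaving out any of small control replicate 2, the 3 large controls or the 3 large thioridazine libraries also ended the call (0.0544 to 0.161). The average effect on txnrd3.L was 0.31 ± 0.09 (limma adjusted p = 0.0407), a call that was kept in 3 of the 12 fits with a library left out, and that was lost without the filter (0.0588) and without both libraries that stood apart (0.173). The estimate went to -0.03 with 2 surrogate variables.

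The other reductase rows were not called. Txnrd3.S was at 24.9 to 33.8 CPM, with effects of 0.02 ± 0.11 in small and 0.13 ± 0.11 in large cohorts. Txnrd1.L, the cytosolic form in mammals, was low at 0.962 to 3.41 CPM, and its change of 0.95 ± 0.39 in large cohorts had an adjusted p of 0.23 (limma). Txnrd2.S, the mitochondrial form, was at 11.1 to 18.5 CPM and gave 0.29 ± 0.14 in small and -0.24 ± 0.14 in large cohorts.

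Thioredoxin itself, txn.L, was at 6.04, 6.57 and 5.13 CPM in small control and 8.02, 9.54 and 8.75 CPM in large control libraries. These did not overlap, but the log2 difference of 0.55 ± 0.25 was not called (limma adjusted p = 0.556). Mitochondrial thioredoxin had average thioridazine effects of -0.03 ± 0.09 (txn2.L) and -0.08 ± 0.05 (txn2.S). Of the 7 thioredoxin and thioredoxin-like rows, limma called none on average, compared with 9.04% of all genes. An unadjusted limma p under 0.05 was found for 1 row (14.3%), compared with 23.8% of all genes.

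Txnip binds reduced thioredoxin and blocks it, and also limits glucose uptake. Txnip.L was at 18.7, 17.9 and 18.8 CPM in small control and 19.2, 13.3 and 16.8 CPM in large control libraries. With thioridazine it was at 26.1, 27.2 and 22.1 CPM in small and 23.5, 24.4 and 18.1 CPM in large cohorts. The small cohorts did not overlap, and in large cohorts 1 thioridazine library lay below the highest control. The effects were 0.43 ± 0.14 in small (limma adjusted p = 0.116) and 0.40 ± 0.15 in large cohorts (limma adjusted p = 0.192), and their average, 0.41 ± 0.10, was called (limma adjusted p = 0.0216). The call was lost without large control replicate 2 (0.0511), without large thioridazine replicate 2 (0.0552), without both libraries that stood apart (0.099) and with 2 surrogate variables (0.28, limma adjusted p = 0.828). Txnip.S had the same sign, with an average of 0.24 ± 0.12 (limma adjusted p = 0.251).

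Of the 11 peroxiredoxins, 1 was called on average (9.09%), compared with 9.04% of all genes. On average an unadjusted limma p under 0.05 was found for 1 row (9.09%), compared with 23.8% of all genes. With thioridazine in large cohorts these were 4 (36.4%, against 16.9%), 2 higher and 2 lower. In small cohorts they were 3, all higher (27.3%, against 18.4%), and between control cohorts 3 (27.3%, against 8.75%). The difference from all genes was not tested. The called row was prdx1.S, which encodes an abundant cytosolic peroxidase. It was at 104, 81.8 and 84.7 CPM in small control, 82.5, 77.4 and 84.4 in large control, 125, 98.0 and 97.7 in small thioridazine and 92.6, 101 and 111 CPM in large thioridazine libraries. In large cohorts the groups did not overlap, and in small cohorts 1 control library exceeded 2 thioridazine libraries. The average log2 change of prdx1.S was 0.27 ± 0.08 (limma adjusted p = 0.0409). It was lost when any of 8 libraries was left out (small control 2 and 3, large control 1, 2 and 3, small thioridazine 1, large thioridazine 2 and 3, with 0.0702 to 0.101), without the filter (0.059) and without both libraries that stood apart (0.141), and was 0.03 with 2 surrogate variables (limma adjusted p = 0.984). Prdx1.L gave an average of 0.15 ± 0.08 (limma adjusted p = 0.266). Prdx2.L, also cytosolic and plentiful in red blood cells, was 0.39 ± 0.14 higher on the log2 scale in large controls without passing (limma adjusted p = 0.411), and thioridazine effects on prdx6, which also acts on phospholipids, were -0.13 to 0.21 over both copies and cohorts.

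Deiodinases, of which dio2 activates and dio3 inactivates thyroid hormone, gave no call in any comparison (limma). Over all genes, 0.0196% to 9.04% were called, depending on the comparison. Of the 3 tested rows, 0 had an unadjusted limma p under 0.05, compared with 6.92% to 23.8% of all genes. Dio2.L was at 17.8 to 22.9 CPM over all libraries, with thioridazine effects of -0.03 (95% interval -0.27 to 0.21) in small and 0.16 (-0.09 to 0.41) in large cohorts. Dio2.S, at 4.74 to 10.99 CPM, gave a log2 difference of -0.40 ± 0.24 between control cohorts and -0.47 ± 0.24 between thioridazine cohorts, neither called. Dio3.L was at 1.3 to 5.18 CPM and its intervals were wide (-0.63 to 0.83 in small cohorts). The other deiodinase rows of the count table were too low for the expression table: dio1.L had 41 counts and dio3.S had 9 counts in the 12 libraries together.

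The 4 methionine sulfoxide reductase rows, which repair oxidised methionine, also gave no call (limma). An unadjusted limma p under 0.05 was found for 0 of them, compared with 6.92% to 23.8% of all genes, depending on the comparison. Msrb1.L, the selenocysteine form, was at 9.75 to 17.6 CPM, and its average thioridazine effect was -0.17 (95% interval -0.44 to 0.10).

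The 6 tested rows of the machinery that makes and inserts selenocysteine were not called either (limma, main fit). With thioridazine in large cohorts 3 of them (50%) had an unadjusted limma p under 0.05, 2 higher and 1 lower, compared with 16.9% of all genes. On average they were 2 (33.3%, against 23.8%) and in small cohorts 1 (16.7%, against 18.4%). Between cohorts and for the interaction they were 0, beside 6.92% to 8.75% of all genes. The difference from all genes was not tested. Sepsecs.L, the enzyme that forms selenocysteine on its transfer RNA, came closest to a call. It was at 9.07, 9.43 and 9.06 CPM in small control, 9.36, 8.3 and 10.1 in large control, 10.9, 14.1 and 8.67 in small thioridazine and 11.8, 12.8 and 13.9 CPM in large thioridazine libraries, so that only the large cohorts were separate. Its average change was 0.35 ± 0.12 (limma adjusted p = 0.0887), and it passed without small thioridazine replicate 3 (0.45, limma adjusted p = 0.0181). Sephs1, related to selenophosphate synthetase, gave average changes of -0.12 ± 0.07 (L) and -0.07 ± 0.08 (S). Secisbp2.L, which binds the hairpin, gave 0.10 ± 0.10. The rule also covered sephs2, but 0 rows of the counts carried that name, so it was not examined.

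The 9 thioredoxin domain proteins and selenbp1.S, which binds selenium without being a selenoprotein, were not called in any comparison (limma). Over all genes 0.0196% to 9.04% were called, depending on the comparison. Between control cohorts 2 of the 9 (22.2%) had an unadjusted limma p under 0.05, compared with 8.75% of all genes. With thioridazine they were 1 in small cohorts (11.1%, against 18.4%), 0 in large cohorts (against 16.9%) and 1 on average (11.1%, against 23.8%). Txndc5.L, a disulfide isomerase of the endoplasmic reticulum, stayed within 130 to 154 CPM, and its homeolog txndc5.S ranged from 88.5 to 120.5 CPM. Txndc12.S had the largest thioridazine estimate of all members in small cohorts (1.67 ± 0.62; limma adjusted p = 0.163), but small control replicate 2 was at 0.571 CPM, with 4.56 to 15.9 CPM elsewhere, and without it the estimate was 0.51 ± 0.35.

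**Figure D4:**
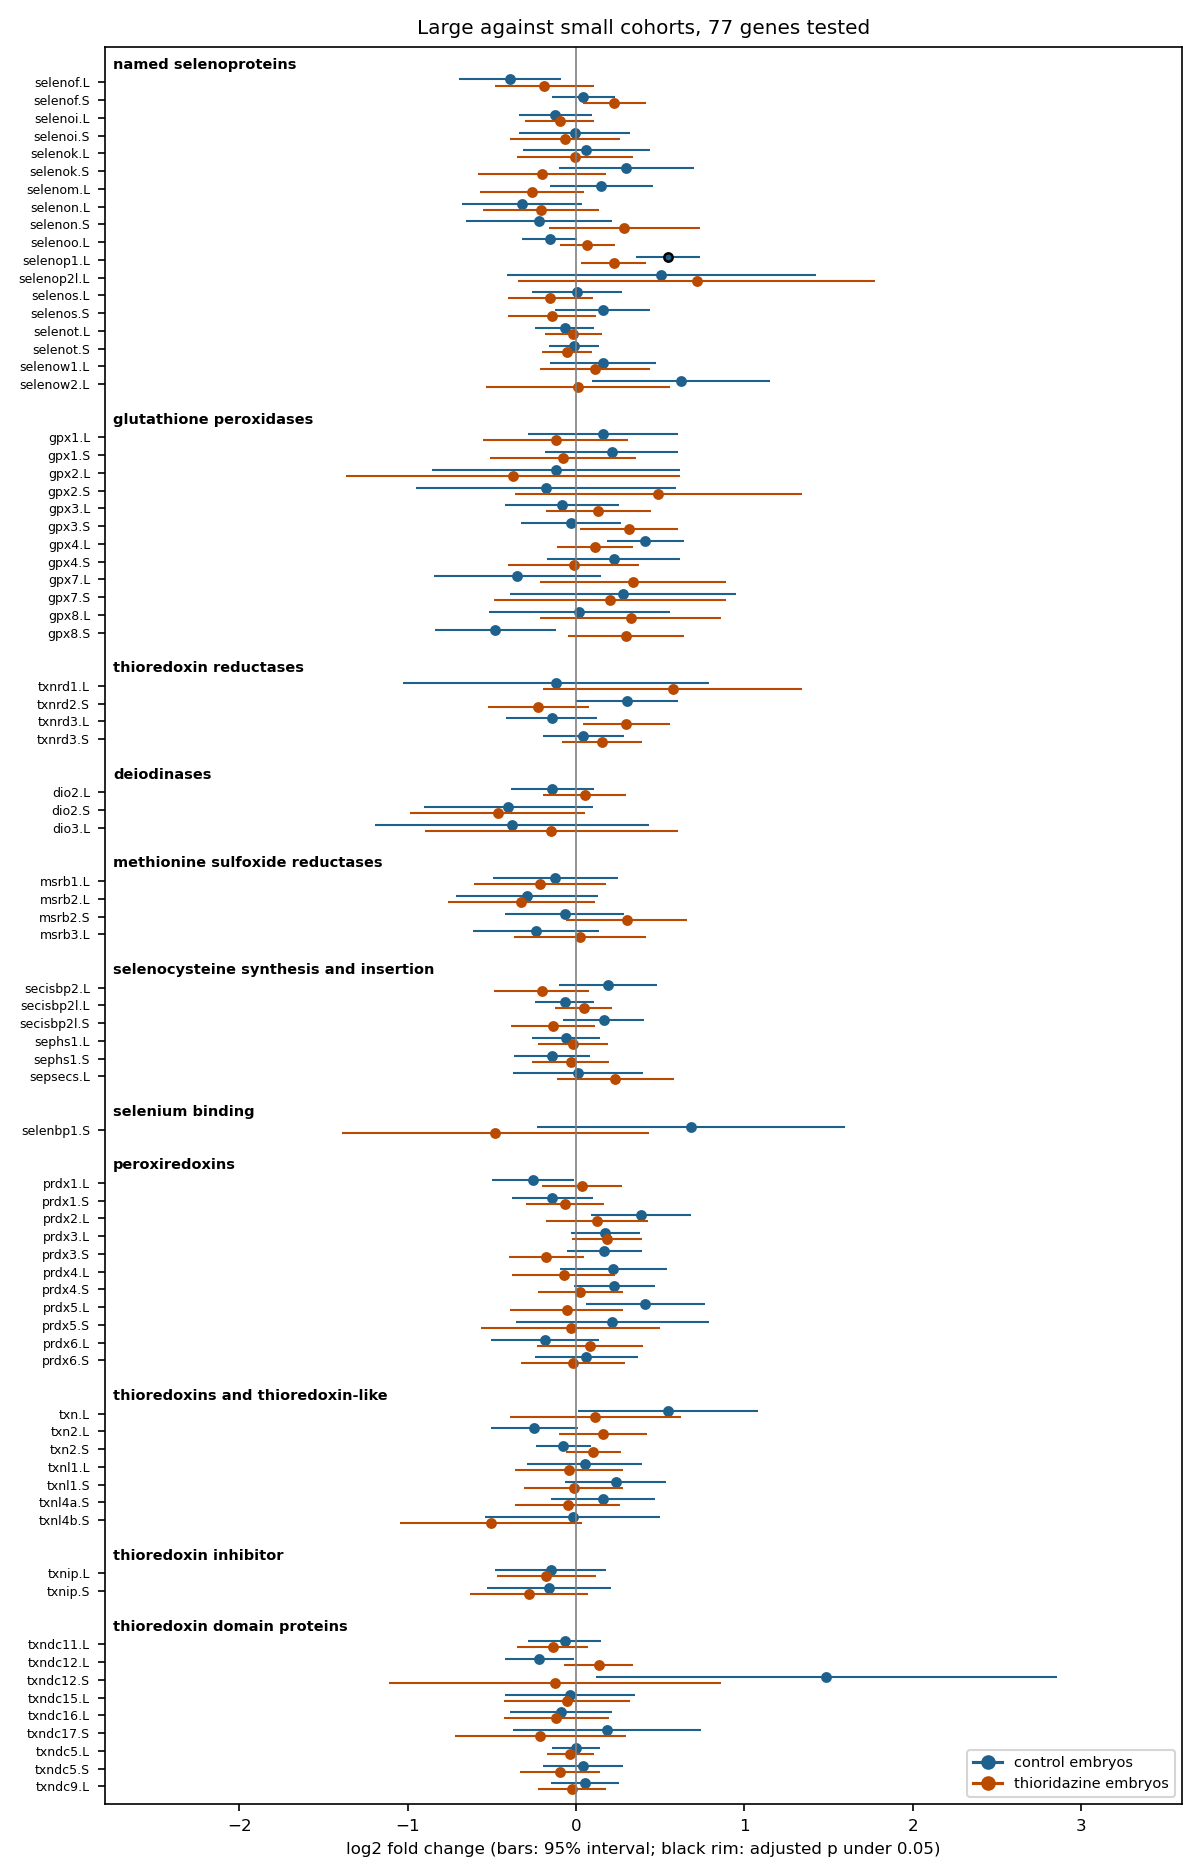
Log2 fold change of large against small cohorts for the 77 genes tested, by role, in control and thioridazine embryos (points are limma estimates, bars 95% intervals, a black rim marks an adjusted p under 0.05). Only selenop1.L in controls (0.55) has a rim.

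Called genes were found both with and without selenocysteine. Of the 33 tested rows for proteins with selenocysteine, 2 were called higher and 1 lower on average with thioridazine, with a median log2 change of 0.07. Of the 43 without it, 2 were called higher, with a median of 0.03, and selenop2l.L was assigned to neither set. The background for these counts is 3.9% of genes higher and 5.14% lower, and the 1 lower call is again gpx2.L. Both homeologs had the same sign in 20 of 27 pairs between control cohorts (62.1% of all 6478 homeolog pairs tested), in 15 between thioridazine cohorts (56.8%), in 20 for thioridazine in small cohorts (67.8%) and in 14 in large cohorts (67.6%). The effects of thioridazine in small and large cohorts, which rest on separate libraries, had the same sign for 45 of 77 members (58.4%), compared with 61.9% of all genes. Groups did not overlap for 12 of 77 members between control cohorts (16% of all genes), 7 between thioridazine cohorts (10.7%), 10 for thioridazine in small cohorts (21.7%) and 18 in large cohorts (23.7%), which was close to or below the background each time.

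Genes that supply or share these pathways, but are not members, were also counted. Between cohorts and for the interaction limma called none of them, where the share of all genes was 0.0196% to 0.125%. Between control cohorts 7.69% to 36.4% of the rows of a list had an unadjusted limma p under 0.05, compared with 8.75% of all genes. The highest shares were those of thyroid hormone transport and response (4 of 11, 36.4%) and of lipid peroxidation and ferroptosis (4 of 13, 30.8%). Between thioridazine cohorts the shares were 0% to 23.1% (6.92% of all genes), and for the interaction 0% to 15.4% (7.74%). These differences from all genes were not tested. Of 7 rows for selenocysteine synthesis and selenium supply (including the selenoprotein P receptors lrp2 and lrp8), limma called none on average with thioridazine (2 had an unadjusted p under 0.05). The 20 rows of oxidative folding in the endoplasmic reticulum also gave none (5 with an unadjusted p under 0.05). Of all genes, 9.04% were called on average and 23.8% had an unadjusted limma p under 0.05.

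Of 26 rows of glutathione synthesis and recycling, 4 were called higher on average and none lower, beside 3.9% higher and 5.14% lower over all genes. The difference of this and the following lists from that background was not tested. Chac1.L, which breaks down glutathione, had the largest change. It was at 23.3, 22.0 and 19.8 CPM in small control and 68.9, 71.2 and 60.2 CPM in small thioridazine libraries, with 16.2, 20.7 and 19.4 CPM and 35.1, 57.9 and 41.3 CPM in large cohorts. All thioridazine libraries thus lay above all controls. Its average log2 change was 1.43 ± 0.12 (limma adjusted p = 6.12e-06), and 1.06 with 2 surrogate variables (limma adjusted p = 0.0132). The cystine carrier subunit slc3a2 (0.40 for S, 0.37 for L) and the glutamate-cysteine ligase subunit gclm.L (0.29) made up the rest.

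Of 24 rows of the oxidant response, 6 were called higher and 2 lower on average (3.9% and 5.14% of all genes). The 4 with the smallest p were the regulator nfe2l1.S (0.51 ± 0.08), the autophagy adaptor sqstm1.L (1.195 ± 0.20), the quinone reductase nqo1.L (-0.60 ± 0.10) and sesn2.S (0.53 ± 0.11). Of 13 rows of lipid peroxidation and ferroptosis, 6 were called higher and 2 lower against the same background, led by acsl4.L (0.58 ± 0.06) and acsl4.S (0.71 ± 0.09), which attach coenzyme A to polyunsaturated fatty acids, lpcat3.S (0.42 ± 0.07), which places these in phospholipids, and the iron exporter slc40a1.L (-0.37 ± 0.08). Of 11 rows of thyroid hormone transport and response, 2 were called lower, slc16a10.L (-0.25 ± 0.06) and crym.S (-0.79 ± 0.22). Crym.S was low, at 0.959 to 4.95 CPM, and its change was -0.07 with 2 surrogate variables. Its call was kept in 3 of the 12 fits with a library left out, and that of slc16a10.L in all 12. Of the 22 called rows of these lists, 15 were called without the 2 libraries that stood apart and 2 (chac1.L and tfrc.L) with 2 surrogate variables, a setting in which the calls over all genes dropped from 2310 to 64.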

How the data were processed

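Total RNA of 15 pooled tadpoles per library was depleted of ribosomal RNA and sequenced with a stranded kit. Per the labels and the methods, reads were filtered for ribosomal RNA with Bowtie2, aligned with STAR in a two-pass mode and quantified with RSEM. For tool versions, the genome build and strandedness of counting, values were not given in the sources used here. Deposited by the authors were RSEM expected counts (estimated counts, 32.6% of them not whole, for 42638 genes) and log2 CPM values (26050 genes). The deposited log2 CPM values were recomputed from the counts with a largest difference of 4.97e-14, so no batch or surrogate variable had been removed from them. CPM values are not scaled by gene length, so levels are not compared between genes. All 78 members matched RefSeq gene records by symbol (assembly Xenopus_laevis_v10.1), used for names alone.

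The low-value filter asked for 1.8 CPM in 3 or more libraries, which 25553 genes passed. TMM factors came from edgeR 4.0.16, and voom, lmFit and eBayes were run in limma 3.58.1 (R 4.3.3) over all 12 libraries, two-sided. Fold changes are log2 differences of voom values. Comparisons were large against small cohorts within treatment, thioridazine against control within cohort size, their interaction and the average thioridazine effect. The study's methods name 2 surrogate variables for a principal component analysis and none in the sentence on limma, so the main fit had none, and a fit with 2 (sva 3.50.0) was an alternative. Others were DESeq2 1.42.0 and the edgeR quasi-likelihood test (counts were rounded for DESeq2 and edgeR), other filters, RLE factors, the deposited log2 table, quality weights, a replicate block, the compared libraries alone, and libraries left out (a group of 2 was then assumed to vary like the others). Fits were tested on simulated counts. No library repeated another (chi-square per degree of freedom 2.37 to 5.68 for 12 pairs). Members, roles, lists and tests were chosen with earlier results of these data known. Named genes were members called in any comparison, a fixed set of well-known members, extremes of a role group, and up to 4 called genes per list. Selenot, selenos, selenok, selenom.L, selenoo.L, sepsecs.L, gpx8.S, secisbp2.L, txndc5 and tfrc.L were named after their values were seen.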

Additional observations from a re-analysis of the deposited data

How the results depend on the processing

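The number of called members was small in every setting, and depended on the setting. Between control cohorts it was 1, and 2 with 2 surrogate variables (selenop1.L and selenof.L) or with the compared libraries alone (selenop1.L and gpx4.L). It was 0 with edgeR, without a filter beyond 1 count and on the deposited log2 table. With a single library left out it was 0 to 1. For thioridazine in large cohorts it was 1, and 2 with DESeq2, 3 with quality weights or the compared libraries alone, 0 without a filter or without both libraries that stood apart, and 0 to 2 with a library left out. For thioridazine in small cohorts it was 0, and 0 to 1 with a library left out (1, selenos.S, without thioridazine large replicate 2). Between thioridazine cohorts and for the interaction it was 0 in every alternative run. For the average effect it was 5, and 1 with 2 surrogate variables (selenof.L, so that all 5 were lost), 2 without a filter (selenoi.L and txnip.L), 2 without both libraries that stood apart (selenoi.L and selenof.L), and 1 to 5 with a library left out (1 without large control replicate 2). The direction of the called members was kept in every alternative except that txnrd3.L went from 0.31 to -0.03 (-0.032, limma adjusted p = 0.986) on average with 2 surrogate variables, and the cause was not tested.

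Replicate numbers did not pair the samples: the deviations of same-numbered libraries correlated at -0.148 to 0.102 over 18 pairs, and 1 of 12 libraries correlated best with its own number. With a replicate block 0 members were called between control cohorts (selenop1.L 0.55, limma adjusted p = 0.0631), and the counts of the other comparisons stayed within 1.5 times.

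Over all genes and all alternatives, libraries left out included, calls ranged from 0 to 154 between control cohorts (32 in the main setting; 0 without large control replicate 1), 0 to 48 between thioridazine cohorts (19), 41 to 1209 and 57 to 877 for thioridazine in small (718; 1209 without small thioridazine replicate 3) and large cohorts (573), 0 to 55 for the interaction (5) and 64 to 2730 for the average (2310). Genes near 1 CPM, such as gpx2.L and txnrd1.L, are limited by depth.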
